A study of Mus musculus with 2 samples.

Results

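The 33 genes described here mark the cells of the vessel wall. They were chosen by gene symbol as known markers, by a rule that names no measured value but was written with earlier results of these data known, and all 33 were found among 55536 annotated genes. On the endothelial side stand 26 of them: 21 pan-endothelial genes, 4 arterial or venous genes and 1 lymphatic gene. The other 7 mark mural cells, with 4 pericyte genes and 3 smooth muscle genes. The tissue was gastrocnemius, taken at 14 days of age from B6CASTF1/J males, and 2 total RNA libraries were made from 300 ng of RNA each. The gastrocnemius is the large muscle of the calf. B6CASTF1/J is a hybrid between a C57BL/6J and a CAST/EiJ parent, and the alleles were not separated. There was 1 group, with no treatment, mutation or second time point, so the comparisons are between genes and between the 2 libraries. The labels mention 3 males and give both libraries 1 donor identifier. Separate animals are therefore not certain, and p-values measure only the difference between these 2 libraries, which may be technical. With 2 libraries an exact permutation test over samples cannot go below 0.5.

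Blood vessels are lined by endothelial cells, which are joined by cadherin and claudin contacts, sense flow and growth factors, and pass fuel and oxygen to the tissue. Pericytes sit on capillaries and smooth muscle cells wrap arterioles and veins; together they are called mural cells and set vessel tone and stability. Skeletal muscle is crossed by a dense capillary bed that grows with the fibres after birth.

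The libraries held 40825601 and 37329025 expected counts, that is, estimated reads per gene. Added control RNAs took 0.731% and 0.881% of them. The 6 skeletal muscle fibre markers, which check the tissue label, had mean levels between 1822 and 27600 TPM, a measure of abundance relative to all transcripts of a library and corrected for transcript length. Vessel cells are a minority of such tissue, and in bulk RNA fewer cells of a type and less RNA per cell cannot be told apart.

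Vessel wall genes were nearly all detected. At least 1 TPM in both libraries was reached by 31 of 33 members, and the exceptions were the smooth muscle genes Cnn1 and Myocd. Mean levels ran from 0.870 TPM for Myocd to 103 TPM for Rgs5, with a median of 11.1 TPM. All members together summed to 654 TPM in replicate 1 and 563 TPM in replicate 2, which was 0.141% and 0.119% of the TPM of nuclear protein-coding genes. The 26 endothelial genes summed to 445 and 361 TPM (mean 403 ± 59.2, SD, n = 2). The 7 mural genes summed to 209.1 and 202.4 TPM (206 ± 4.72, SD, n = 2), most of it from Rgs5 and Abcc9, without which the other 5 summed to 46.6 and 43.8 TPM.

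**Figure D1:**
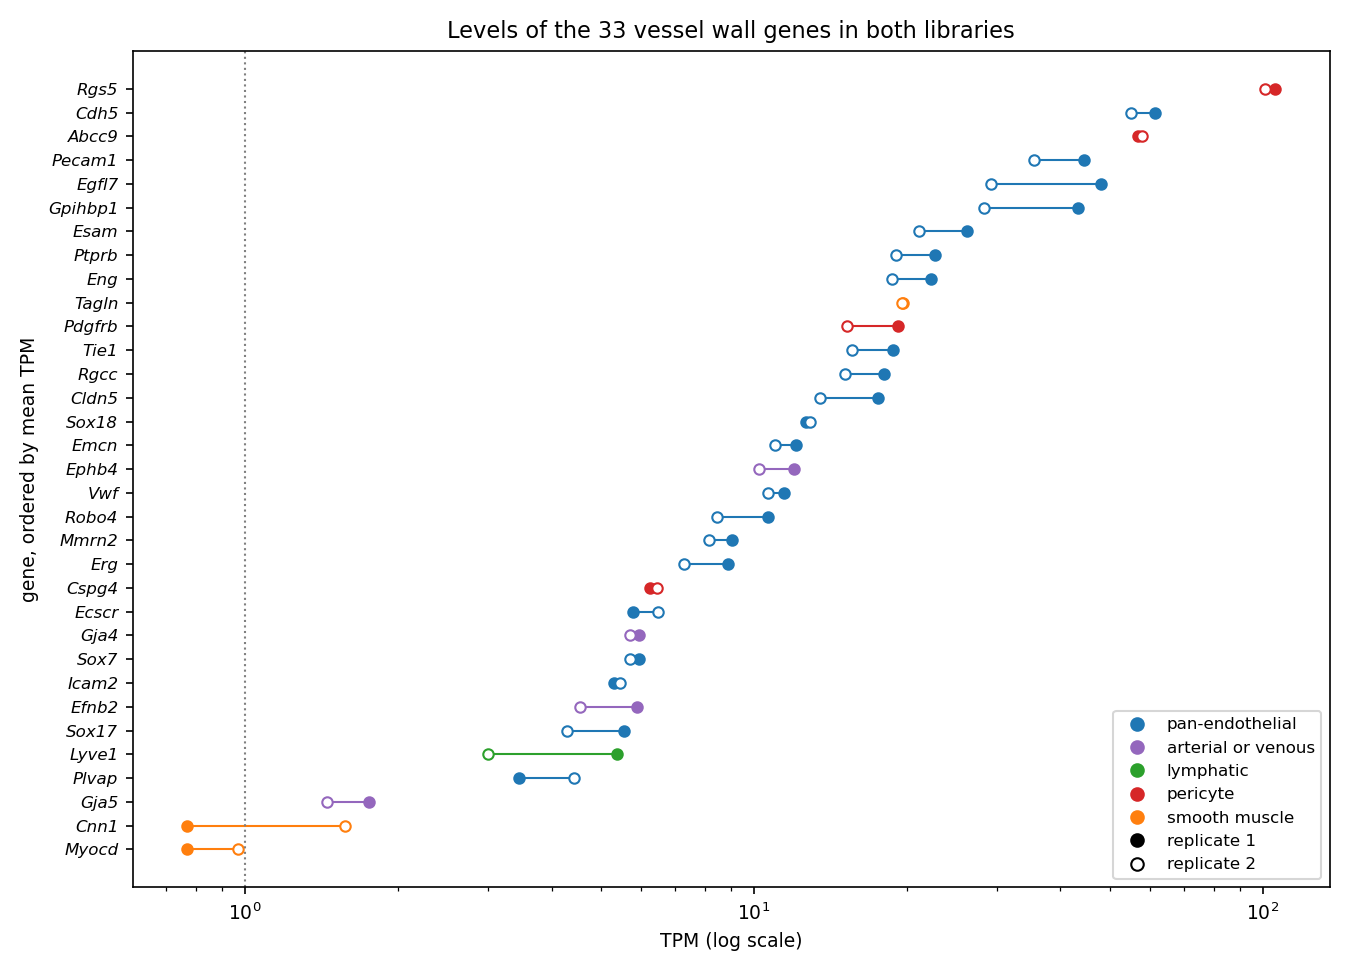
TPM of each of the 33 genes on a log axis, in replicate 1 (filled) and replicate 2 (open), coloured by role; the dotted line marks 1 TPM. Rgs5 stands highest with both libraries above 100 TPM, most endothelial genes lie further left in replicate 2, and Cnn1 and Myocd straddle or lie under the line.

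Most endothelial genes were lower in replicate 2, whereas the mural genes were split. In a two-sided exact binomial test on counts scaled by TMM (trimmed mean of M values), with Benjamini-Hochberg adjustment over 17245 genes, 22 of 33 members differed between the libraries, against 21.5% of all genes tested. Of these, 16 were lower in replicate 2, beside 10.6% of all genes, and 6 were higher, beside 10.9%. Scaled by the added ERCC control RNAs instead, which put the median of all genes at -0.28 on the log2 scale (0.01 with TMM), 26 members were lower and 0 higher, beside 50.8% of all genes lower. This test covers counting error only and calls genes with many reads more easily. Among 9462 protein-coding genes with at least 300 counts, the share that differed was 30.7%, with 14.0% lower in replicate 2. Of the 30 members in that class 20 differed, 16 of them lower.

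On the log2(TPM + 1) scale the median difference of the members, replicate 2 over replicate 1, was -0.17. The median over the 12156 genes whose mean level was 1 TPM or more was -0.04, with an SD of 0.30. Below 0 were 25 of 33 members, beside 59.6% of those genes. The deposited intervals of the TPM did not overlap between the libraries for 14 members, beside 13.2% of genes. These intervals need not be centred on the TPM, and for Rgs5 they did not hold it. By side, 22 of the 26 endothelial genes lay below 0, with a median of -0.24; 15 passed the test as lower and 3 as higher (Plvap, Vwf and Gja5, of which only Plvap was also higher in TPM). Of the 7 mural genes 3 lay below 0, with a median of 0.02; 1 passed as lower and 3 as higher. The ratio of summed endothelial to summed mural TPM was 2.13 in replicate 1 and 1.78 in replicate 2 (1.95 ± 0.243, SD, n = 2). The mural sum includes Abcc9, at 56.8 and 57.7 TPM. Models of a form known from heart and skeletal muscle, described below, took 63.2% and 74.8% of the Abcc9 TPM. The part of fibres in the mural sum and in the ratio was not tested.

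**Figure D2:**
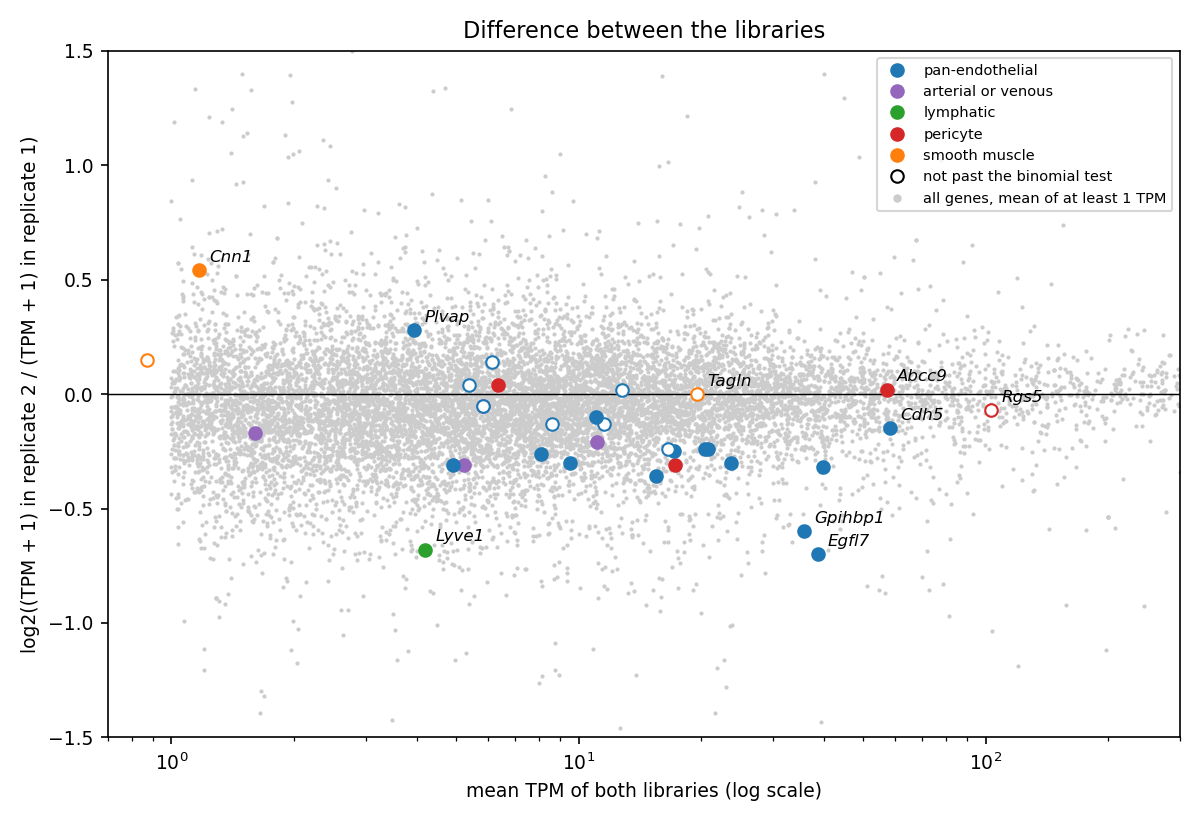
Log2 difference between the libraries, replicate 2 over replicate 1 in TPM + 1, against mean TPM on a log axis; grey points are all genes whose mean is 1 TPM or more, coloured points the members by role, and open points did not pass the exact binomial test on counts. Egfl7, Lyve1 and Gpihbp1 lie between -0.60 and -0.70, while Abcc9, Rgs5 and Tagln lie within 0.07 of 0.

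Some markers of cells outside the vessel wall differed between the libraries too. Of all genes tested, 10.6% were lower in replicate 2 and 10.9% higher. The 6 fibroblast markers summed to 2580 TPM in replicate 1 and 2091 TPM in replicate 2, and 4 of them passed the test as lower and 1 as higher. Most of the fall in that sum lay in Col1a1, at 1597 and 1118 TPM, while Col3a1 was at 729 and 744 TPM. The 4 erythroid markers, from red cells and their precursors, summed to 1335 and 1879 TPM, and all 4 passed as higher. The 6 fibre markers summed to 93020 and 99610 TPM, with 5 higher and 1 lower. The 4 Schwann cell markers summed to 57.1 and 84.4 TPM, with 1 higher. The 2 satellite cell markers summed to 3.35 and 3.15 TPM, and neither passed. None of these markers was at 0. Their part in the difference of the endothelial genes was not tested.

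Among the genes of endothelial junctions and adhesion, levels differed widely. Cdh5 encodes VE-cadherin, the cadherin of endothelial adherens junctions. It was at 61.4 TPM in replicate 1 and 55.2 in replicate 2 (58.3 ± 4.40, SD, n = 2), second in level only to Rgs5 among the members. Replicate 2 was the lower library (adjusted p = 0.0015, exact binomial test). Abcc9 and Cdh5 overlapped in their library values, so their order is not set beyond the spread.

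Pecam1, which encodes CD31, an adhesion protein of endothelial contacts, was at 44.5 and 35.5 TPM (40.0 ± 6.33, SD, n = 2). That is a log2 difference of -0.32 (adjusted p = 9.1e-10, exact binomial test). Pecam1 reached 0.684 ± 0.0570 of the Cdh5 level (SD, n = 2 libraries). Esam, an adhesion molecule of tight junctions, was at 26.3 and 21.1 TPM and was also lower in replicate 2 (adjusted p = 3.3e-05, exact binomial test).

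Cldn5, the main claudin of endothelial tight junctions, was at 17.5 and 13.5 TPM, again lower in replicate 2 (adjusted p = 0.00065, exact binomial test). Icam2, an adhesion molecule bound by leukocytes, was far lower at 5.30 and 5.46 TPM, and the libraries did not differ by the test (adjusted p = 0.73, exact binomial test).

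The Pecam1 models differed in the part that encodes the tail inside the cell, at chr11:106655133-106679568 (mm10, minus strand). The 3 ends are shown because they held most of the gene's TPM. They start with 20 bases of the shared exon, capitals mark the alternative exons, and the last 3 bases are the stop codon (GENCODE M21 transcripts).
Pecam1 both exons: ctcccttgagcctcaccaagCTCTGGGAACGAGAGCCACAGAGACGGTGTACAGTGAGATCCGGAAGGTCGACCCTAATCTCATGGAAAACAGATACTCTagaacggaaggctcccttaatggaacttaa
Pecam1 57-base exon only: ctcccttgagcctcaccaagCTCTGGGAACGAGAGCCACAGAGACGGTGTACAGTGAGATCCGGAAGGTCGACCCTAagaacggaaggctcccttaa
Pecam1 neither exon: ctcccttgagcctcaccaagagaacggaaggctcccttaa
The model with neither exon took 37.1% and 38.2% of the Pecam1 TPM, and the model with the 57-base exon only took 32.0% and 40.5%. The 2 models with both exons took 23.4% and 18.2%. All 3 ends were thus present in both libraries. Their order rests on the quantification: in the authors' second quantification, made directly from the reads, both exons led with 36.9% and 35.6%, and the 57-base exon only took 14.4% and 17.0%.

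Receptors and signalling genes of the endothelium stood at middle levels. Ptprb encodes VE-PTP, a phosphatase that acts on VE-cadherin and TIE2. It was at 22.7 and 19.0 TPM, lower in replicate 2 (adjusted p = 3.2e-10, exact binomial test). Tie1, a receptor tyrosine kinase that works with TIE2, was at 18.7 and 15.6 TPM (adjusted p = 8.3e-05, exact binomial test). Within a library it was 1.71 ± 0.186 times as abundant as Tek, the gene for TIE2 (SD, n = 2).

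Robo4, a roundabout receptor that stabilises vessels, was at 10.6 and 8.44 TPM, lower in replicate 2 (adjusted p = 0.00050, exact binomial test). A Robo4 model of the nonsense-mediated decay class, which is not expected to give full protein, took 20.3% and 27.4% of the gene's TPM, and 40.2% and 47.3% in the second quantification. Rgcc, a cell cycle regulator made in capillary endothelium, was at 18.0 and 15.1 TPM (adjusted p = 0.16, exact binomial test). Mmrn2, a matrix protein of the endothelium, was at 9.05 and 8.16 TPM, and Ecscr, an endothelial surface protein, was at 5.78 and 6.49 TPM. Neither of the last 2 differed by the test (adjusted p = 1 and 0.39, exact binomial test).

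Eng encodes endoglin, a co-receptor for BMP and TGF-beta ligands that is mutated in hereditary haemorrhagic telangiectasia. It was at 22.3 and 18.6 TPM (20.4 ± 2.56, SD, n = 2), lower in replicate 2 (adjusted p = 0.00017, exact binomial test). Endoglin is known in a long form and a short form that differ in the tail inside the cell. Both ends are shown, from chr2:32681278-32681561 (mm10, plus strand), with 20 shared bases first and capitals for what follows up to the stop codon. In the short form the intron is kept and read into.
Eng long tail: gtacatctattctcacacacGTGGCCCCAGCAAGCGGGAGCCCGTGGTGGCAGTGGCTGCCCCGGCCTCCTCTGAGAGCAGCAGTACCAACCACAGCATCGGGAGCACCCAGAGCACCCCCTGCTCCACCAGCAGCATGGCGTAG
Eng short tail: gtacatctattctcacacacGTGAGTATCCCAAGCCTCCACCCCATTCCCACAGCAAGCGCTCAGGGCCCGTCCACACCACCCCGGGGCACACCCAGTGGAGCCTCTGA
The long tail took 80.0% and 78.3% of the Eng TPM and the short tail 12.5% and 14.5%. The long tail also led in the second quantification, but less far, with 57.9% and 53.7% against 33.5% and 43.2%. Reads from unspliced RNA, which total RNA libraries contain, fall on a kept intron too; their share was not measured.

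**Figure D3:**
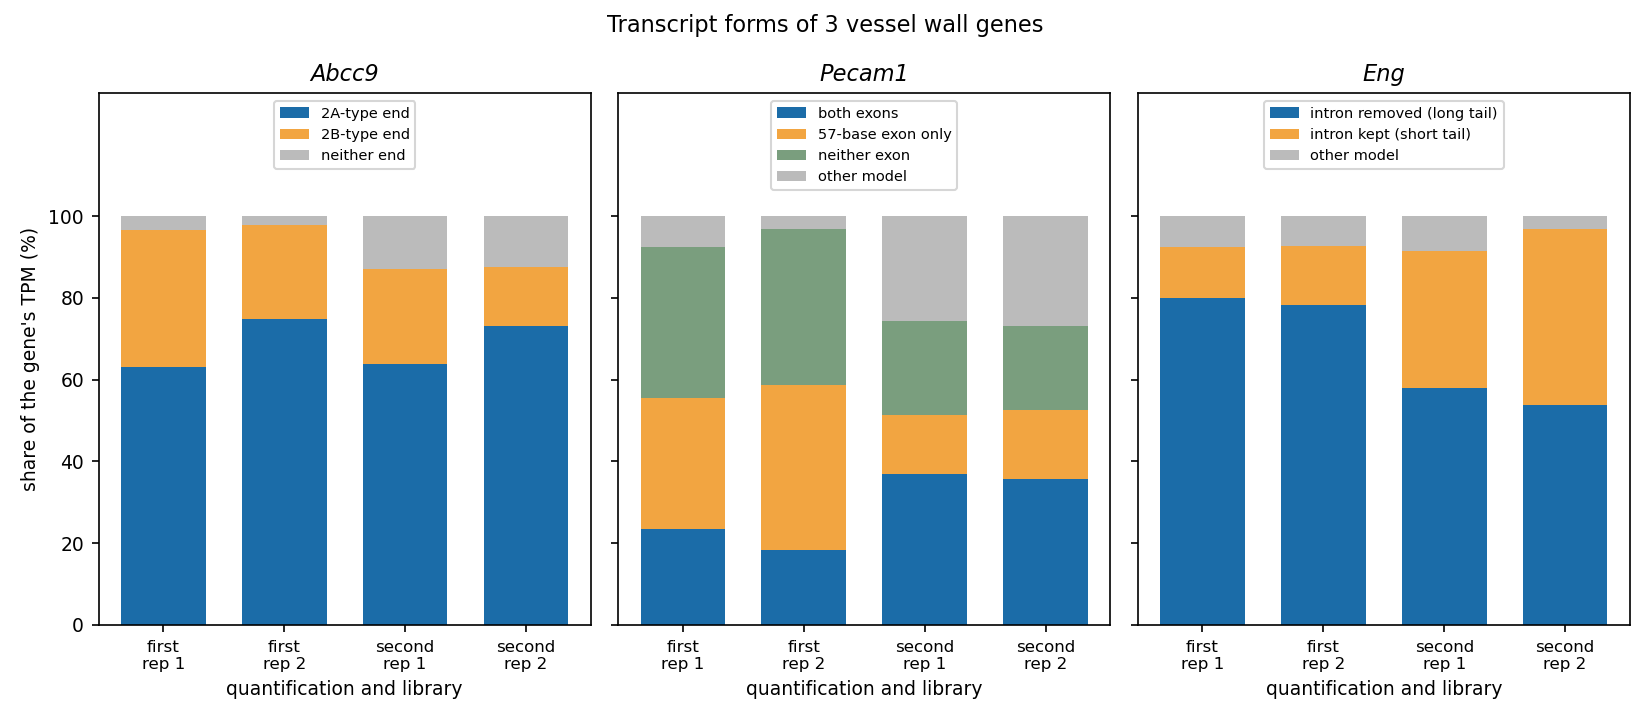
Stacked bars give the share of each gene's TPM (%) taken by transcript forms of Abcc9, Pecam1 and Eng, in replicates 1 and 2 of the first and the second quantification. The 2A-type end of Abcc9 and the long tail of Eng lead in all 4 bars, while the order of the Pecam1 forms differs between the quantifications.

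Egfl7 was among the members that were lower in replicate 2. The gene, at chr2:26580014-26593120 (mm10), encodes a secreted protein of the endothelial matrix and carries the miRNA gene Mir126a in an intron. It was at 48.1 TPM in replicate 1 and 29.3 TPM in replicate 2 (38.7 ± 13.3, SD, n = 2), a log2 difference of -0.70 (adjusted p = 6.1e-17, exact binomial test). Counts were 1305 and 794. The mature miR-126a-3p is shown because it is the best known endothelial miRNA and comes from this transcript; capitals mark the seed, bases 2 to 8 (RefSeq, GRCm38.p6).
mmu-miR-126a-3p: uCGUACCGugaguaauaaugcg
The Mir126a gene itself was listed at 0 counts in both libraries. The hairpin also lies within 1 longer Egfl7 model with a retained intron, which took 13.1% and 7.76% of the gene's TPM in the 2 libraries. In the second quantification that model took 10.9% and 5.26%. Its reads show the host RNA and not the mature miRNA.

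RefSeq gives Egfl7 3 start sites, and the stretch around the central one is shown because the leading of the 19 Egfl7 models in the first quantification begins within 100 bases of it, as do 2 others; 4 models begin at the proximal start and 1 at the distal one. It spans chr2:26583615-26583914 (GRCm38.p6, plus strand), from 250 bases before the start to 50 after. Capitals mark AGGAAG, a word with the GGAA core that ETS factors such as ERG and FLI1 bind, searched as AGGAAG and CTTCCT.
Egfl7 central promoter: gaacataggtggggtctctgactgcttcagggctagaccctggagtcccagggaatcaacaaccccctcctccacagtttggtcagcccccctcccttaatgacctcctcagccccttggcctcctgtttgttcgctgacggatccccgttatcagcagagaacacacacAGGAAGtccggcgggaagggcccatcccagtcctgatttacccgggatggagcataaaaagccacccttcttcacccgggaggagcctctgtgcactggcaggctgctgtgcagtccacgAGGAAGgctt
Models from the central start took 36.3% and 44.9% of the Egfl7 TPM, and those from the proximal start 1.35% and 2.02%. The distal model took 0.749% and 2.53%. The other 11 models, which begin near none of the 3 starts, took the largest part, 61.6% and 50.6%. In the second quantification the central start took 29.0% and 8.82% and the proximal start 27.0% and 34.0%. The distal model took 4.53% and 23.5% there, and the other 11 models 39.4% and 33.7%. The use of the starts is thus not settled by these data. RefSeq promoters were matched for 16 members, 20 promoters in all. Of these members 2, Egfl7 and Erg, had several promoters. AGGAAG stood in 9 of 16 endothelial promoters and in 0 of 4 mural ones, beside 35.4% of all 32851 promoters of that length. The shorter word GGAA, searched with TTCC and contained in AGGAAG, stood in 19 of 20 member promoters and 96.0% of all. By side it stood in 15 of 16 endothelial promoters and 4 of 4 mural ones. A match is a run of letters and not a measured binding site.

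Genes of capillary exchange did not move together. Gpihbp1 encodes the protein that anchors lipoprotein lipase on the capillary wall. It was at 43.4 and 28.3 TPM (35.9 ± 10.7, SD, n = 2), a log2 difference of -0.60 (adjusted p = 2.3e-13, exact binomial test). Plvap, which forms the diaphragms of fenestrae and caveolae, went the other way with 3.46 and 4.42 TPM, a log2 difference of 0.28 (adjusted p = 0.015, exact binomial test).

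Gpihbp1 and Cldn5 both exceeded Plvap in each library. Gpihbp1 was 12.6 times Plvap in replicate 1 and 6.40 times in replicate 2. Cldn5 was 5.07 and 3.05 times Plvap. Emcn, the sialomucin endomucin of capillary and venous endothelium, was at 12.10 and 10.99 TPM and did not differ by the test (adjusted p = 0.59, exact binomial test). Emcn models with an alternative exon took 64.4% and 69.0% of its TPM.

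Vwf encodes von Willebrand factor, which binds platelets, carries factor VIII, and is stored and secreted by endothelium. It was at 11.5 and 10.6 TPM (11.04 ± 0.573, SD, n = 2), which is 0.279 ± 0.0298 of Pecam1, and 0.173 in the second quantification. Its TPM and its counts disagree in direction: the log2 difference of TPM + 1 was -0.10, whereas scaled counts gave 0.17 (1562 and 1586 counts, adjusted p = 0.0054, exact binomial test). The effective length by which the authors divided its counts, a mean over its transcripts, was 4258 bases in replicate 1 and 4976 in replicate 2. No direction is given for Vwf here.

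The endothelial transcription factors were present at moderate to low levels. Erg, the ETS factor that maintains endothelial identity, was at 8.89 and 7.28 TPM, lower in replicate 2 (adjusted p = 0.023, exact binomial test). It was 1.17 ± 0.0692 times its relative Fli1 (SD, n = 2), and 1.01 times in the second quantification, with replicates on both sides of 1. The SOXF factors, which act in arterial, venous and lymphatic specification, followed the order Sox18, Sox7, Sox17.

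Sox18 was at 12.7 and 12.9 TPM, Sox7 at 5.93 and 5.71 TPM, and Sox17 at 5.55 and 4.29 TPM. Both libraries placed Sox18 well above the other two: Sox7 was 0.456 ± 0.0173 and Sox17 0.386 ± 0.0741 of it (SD, n = 2). Sox17 and Sox7 were close, at a ratio of 0.844 ± 0.131, and in the second quantification the mean ratio was 1.12. Of the 3 SOXF genes only Sox17 passed the test between the libraries, as lower in replicate 2 (adjusted p = 0.0039, exact binomial test; 0.59 for Sox18 and 1 for Sox7). Whether the genes differ from one another in this was not tested.

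Ephrin signalling between arteries and veins was represented by both partners. Ephb4, the receptor of veins, was at 12.0 and 10.2 TPM, and Efnb2, the arterial ligand ephrin-B2, at 5.89 and 4.56 TPM. Both were lower in replicate 2 (adjusted p = 0.0084 and 0.0016, exact binomial test). The ligand reached 0.469 ± 0.0330 of the receptor within a library (SD, n = 2), and 0.603 in the second quantification. Efnb2 and Ephb4 are also made outside the endothelium, so the ratio is one of tissue RNA.

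The 2 arterial connexins, which form gap junctions, were unequal. Gja4 (connexin 37) was at 5.95 and 5.70 TPM and Gja5 (connexin 40) at 1.75 and 1.45 TPM, a ratio of 3.67 ± 0.376 (SD, n = 2). Gja4 did not differ between the libraries (adjusted p = 1, exact binomial test). For Gja5 the TPM and the counts again disagree: the log2 difference of TPM + 1 was -0.17, but counts rose from 93.1 to 131, or 0.64 after scaling (adjusted p = 0.0071, exact binomial test). A short Gja5 model of 405 bases took 50.3% of the Gja5 TPM in replicate 1 and 0 in replicate 2, and the effective length of the gene went from 1665 to 3010 bases. No direction is given for Gja5 either.

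Lyve1, the hyaluronan receptor of lymphatic endothelium, was at 5.39 TPM in replicate 1 and 3.00 TPM in replicate 2 (4.20 ± 1.69, SD, n = 2). The log2 difference was -0.68, with 415 and 219 counts (adjusted p = 1.8e-09, exact binomial test). Lyve1 is also made by tissue macrophages. The 7 macrophage markers summed to 48.1 and 41.6 TPM, and none was at 0. By the test 2 of 7 were lower in replicate 2, beside 10.6% of all genes tested. The 2 were Cd163, at 8.65 and 5.34 TPM, and Mrc1, at 11.6 and 10.2 TPM. Of the 5 that did not pass, Csf1r was at 6.96 and 8.29 TPM, Adgre1 at 1.16 and 1.40, Cd68 at 1.80 and 1.33, C1qa at 8.46 and 7.09, and C1qb at 9.41 and 7.93.

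Other lymphatic genes did not pass the test, which 21.5% of all genes tested passed. Prox1, the master factor of lymphatic identity, was at 1.83 and 1.72 TPM, and Lyve1 was 2.95 and 1.74 times as abundant. Flt4, the VEGF-C receptor, was at 1.94 and 1.69 TPM, Pdpn (podoplanin) at 5.66 and 5.54, and Ccl21a at 2.37 and 3.20. The part of macrophages in the Lyve1 difference was not tested. Nor was the part of cells other than lymphatic endothelium, such as fibres, in the levels of Prox1 and the other genes here.

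Rgs5 led the pericyte genes and all members. It encodes a regulator of G-protein signalling that is a classic pericyte marker, and lies at chr1:169655501-169695813 (mm10). It was at 105.8 and 100.9 TPM (103 ± 3.47, SD, n = 2), rank 504 among protein-coding genes by mean TPM. The libraries did not differ by the test (log2 difference -0.07, adjusted p = 0.77, exact binomial test), although their deposited intervals did not overlap. Each TPM lay just above the upper bound of its own interval, 105.7 and 100.8 TPM, so little rests on that. Both libraries lay above both values of every other member.

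Pdgfrb, the PDGF-B receptor that recruits pericytes to new vessels, was at 19.2 and 15.3 TPM (17.2 ± 2.79, SD, n = 2). It was the only mural member to pass as lower in replicate 2 (log2 difference -0.31, adjusted p = 2.9e-11, exact binomial test). Fibroblasts also make Pdgfrb, and Pdgfra, the receptor that marks them, was at 17.5 and 12.7 TPM; Pdgfrb was 1.15 ± 0.0697 times Pdgfra (SD, n = 2). Cspg4, the NG2 proteoglycan, was at 6.24 and 6.46 TPM and passed as higher (adjusted p = 0.021, exact binomial test), with a log2 difference of 0.17 in scaled counts and 0.04 in TPM + 1. ERCC scaling of the counts turned it to -0.13 and ended the call (adjusted p = 0.054, exact binomial test), and library totals also ended it (0.051). Pdgfrb was 3.08 and 2.36 times Cspg4.

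Abcc9 encodes SUR2, the sulphonylurea receptor that forms ATP-sensitive potassium channels with a Kir6 pore. It was at 56.8 and 57.7 TPM (57.3 ± 0.693, SD, n = 2). The log2 difference of TPM + 1 was 0.02, and scaled counts gave 0.10 (adjusted p = 5.3e-07, exact binomial test), which turned to -0.19 under ERCC scaling. Of the pore genes, Kcnj8 (Kir6.1, known from pericytes and smooth muscle) was at 9.33 and 8.45 TPM and Kcnj11 (Kir6.2, known from muscle fibres) at 32.4 and 30.4 TPM. Abcc9 was 6.46 ± 0.530 times Kcnj8 and 1.83 ± 0.106 times Kcnj11 (SD, n = 2). Abcc8, the gene of the other sulphonylurea receptor, was at 2.09 and 1.70 TPM.

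SUR2 ends in 1 of 2 alternative ways. The 2A form is known from heart and skeletal muscle and the 2B form from vascular smooth muscle, so the ends bear on how far Abcc9 marks mural cells here. Both last coding stretches are shown, with the stop codon in capitals (GENCODE M21, mm10, minus strand). The 2A end lies at chr6:142594005-142594142 in an exon that the 2B model skips, and the 2B end at chr6:142590366-142590503 in the following exon.
Abcc9 2A-type end: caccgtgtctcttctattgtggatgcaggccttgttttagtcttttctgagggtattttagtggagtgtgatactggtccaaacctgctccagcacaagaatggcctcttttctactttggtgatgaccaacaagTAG
Abcc9 2B-type end: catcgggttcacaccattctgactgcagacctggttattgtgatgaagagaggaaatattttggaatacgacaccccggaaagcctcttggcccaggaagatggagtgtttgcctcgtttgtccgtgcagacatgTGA
Before the stop codon both hold 45 codons, and 69 of their bases are the same position by position (51.1%).

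The 2A-type end was the more abundant in both libraries and both quantifications. Its 3 models took 63.2% of the Abcc9 TPM in replicate 1 and 74.8% in replicate 2 (69.0 ± 8.20%, SD, n = 2). The 1 model with the 2B-type end took 33.5% and 23.1% (28.3 ± 7.35%). In TPM the 2A type was at 35.9 and 43.2, and the 2B type at 19.0 and 13.3. In the second quantification the shares were 63.9% and 73.1% for 2A and 23.2% and 14.5% for 2B. The fibre markers summed to 93020 TPM and 99610 TPM, and the part of fibres in the Abcc9 level and its ends was not tested.

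The smooth muscle members ranged widely. Tagln, the actin-binding protein SM22, was at 19.58 and 19.55 TPM (adjusted p = 0.58, exact binomial test), and Rgs5 was 5.28 ± 0.171 times as abundant (SD, n = 2). Tagln was 0.1006 of Acta2, smooth muscle actin, which was at 195 and 193 TPM, and 0.0537 of it in the second quantification. Cnn1 (calponin, a marker of contractile smooth muscle) was at 0.770 and 1.57 TPM. With 36 and 57 counts it passed as higher (adjusted p = 0.044, exact binomial test), but not in the second quantification. Myocd, the cofactor of SRF that switches on smooth muscle genes, was the lowest member at 0.770 and 0.970 TPM, with 63 and 50 counts (adjusted p = 0.78, exact binomial test). It was 0.0343 ± 0.00103 of Srf (SD, n = 2), and 0.0214 in the second quantification.

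**Figure D4:**
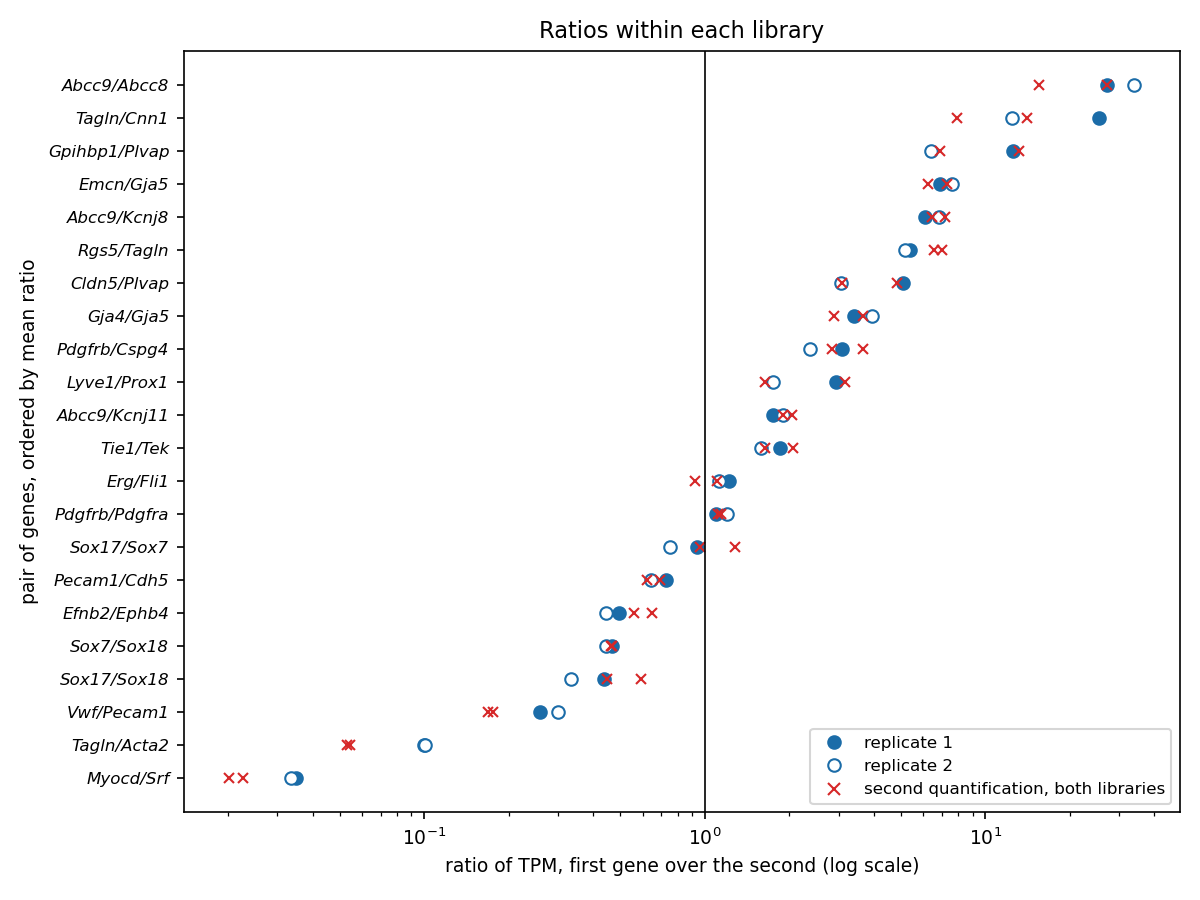
Ratio of TPM within each library for 22 pairs of genes on a log axis, in replicate 1 (filled), replicate 2 (open) and both libraries of the second quantification (crosses); the line marks a ratio of 1. All 22 pairs lie on 1 side of the line in both libraries of the first quantification, and the crosses of Sox17/Sox7 and Erg/Fli1 fall on both sides.

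Neighbours in the order of levels were often close. A gene's lower library lay above the next gene's higher library for Rgs5, Abcc9, Gpihbp1, Tagln, Cldn5, Sox18, Vwf, Erg, Sox7 and Plvap, in some cases by little: 19.55 TPM for Tagln against 19.19 for Pdgfrb, and 10.64 for Vwf against 10.63 for Robo4. The second quantification reversed both of these, with means of 17.97 TPM for Tagln and 22.15 for Pdgfrb, and of 10.29 for Vwf and 12.30 for Robo4. It also put Sox18 (mean 15.38 TPM) under Emcn (16.26), and Sox7 (7.156) under Icam2 (8.048). Gpihbp1 and Esam overlapped there. The other neighbours in the order overlapped in the first quantification, as did Cdh5 with Abcc9 and Pecam1 with Egfl7.

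Other vessel genes were measured beside the members, in 5 lists of 63 genes. Of 25 other endothelial genes 24 reached 1 TPM in both libraries. By the test 8 were lower in replicate 2 and 3 higher, beside 10.6% and 10.9% of all genes. Their median log2 difference was -0.15, beside -0.04. The highest were Cd36 (fatty acid uptake) at 212 and 140 TPM, Fabp4 (fatty acid binding) at 171 and 130, Aqp1 (a water channel) at 139 and 107, and Cd34 (a surface sialomucin) at 47.5 and 46.1. The first 3 were lower in replicate 2 and Cd34 did not pass (adjusted p = 1, exact binomial test); Cd36 and Fabp4 are also made by fibres and fat cells. Higher by the test were Ets1, Cd93 and Mcam.

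The lists of vessel identity held no gene past the exact binomial test. None of 8 arterial, 4 venous and 6 lymphatic genes passed, beside 21.5% of all genes tested, and 0 had an unadjusted p under 0.05. In these lists 7, 3 and 4 genes reached 1 TPM in both libraries. The highest arterial genes were Nrp1 at 22.8 TPM in both libraries, Cxcr4 at 7.08 and 6.53, Dll4 at 5.82 and 4.98, and Hey1 at 5.42 and 4.58. The highest venous genes were Nr2f2 at 10.03 and 10.32 TPM and Nrp2 at 6.00 and 5.63, followed by Ackr1 at 2.30 and 2.06 and Selp at 0.140 and 0.190. These genes have fewer counts than Cdh5 or Rgs5, so a difference of the same size is harder to detect in them. Nrp1, Nrp2, Nr2f2 and Jag1, however, had more counts in each library than Erg, a member that passed (681 and 518 counts). Their log2 differences in scaled counts were 0.06, -0.04, 0.05 and -0.12, beside -0.24 for Erg.

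Of 20 other mural genes all reached 1 TPM in both libraries, with 3 lower and 5 higher by the test, beside 10.6% and 10.9% of all genes, and a median of -0.03. Des (desmin, also a fibre protein) was at 701 and 723 TPM, Acta2 at 195 and 193, Synpo2 at 79.1 and 86.7, and Myl9 at 74.4 and 71.7. Des and Synpo2 passed as higher. The part of fibres in the levels of this list was not tested. The contractile genes Myh11 and Mylk were among the lower, at 9.38 and 7.77 and at 16.2 and 12.7 TPM. Others did not follow them: Smtn passed as higher, at 43.7 and 45.5 TPM (adjusted p = 0.02, exact binomial test). Acta2, Myl9 and Lmod1 did not pass. Vtn was among the higher, at 10.97 and 14.36 TPM.

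**Figure D5:**
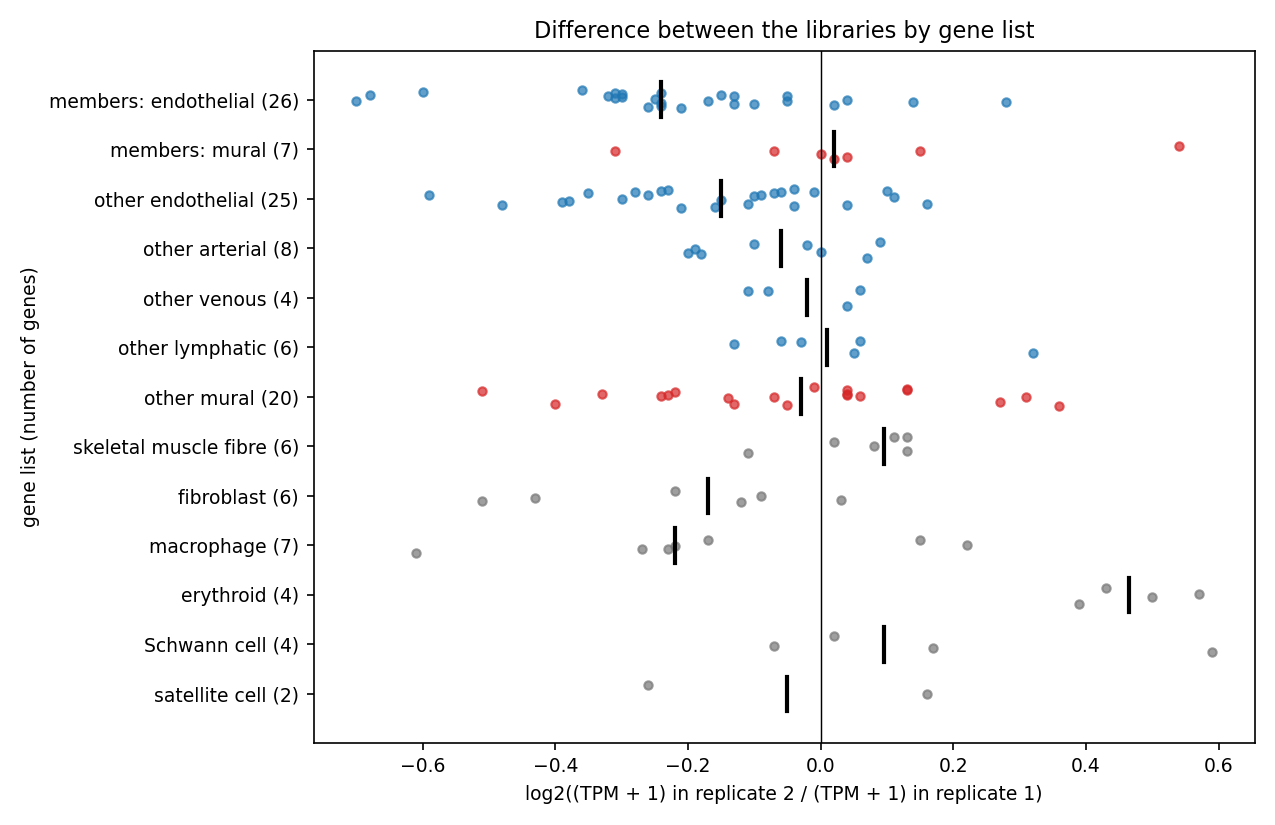
Log2 difference of TPM + 1, replicate 2 over replicate 1, for each gene of the member groups, the other vessel lists and the marker lists of other cell types; black bars are medians and colours mark endothelial (blue), mural (red) and other (grey) lists. The endothelial members have a median of -0.24, the mural members 0.02, and the erythroid genes all lie above 0.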

How the data were processed

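Per the labels, total RNA of 2 gastrocnemius libraries was sequenced and processed with mm10 and GENCODE M21. Aligner and quantifier names: not given in the sources used here. Expected counts (estimated reads, not normalised) per gene and transcript were deposited by the authors. Their deposited TPM share 1 scale with the added control RNAs. The interval of each TPM, a lower and an upper signal value, is also as deposited. A second deposited transcript table, made directly from the reads, was summed per gene.

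Expected counts were rounded and scaled by TMM (edgeR 4.0.16). Genes with 10 counts or more in all were tested with a two-sided exact binomial test (scipy 1.17.1), adjusted by Benjamini-Hochberg at 0.05. On simulated data 179 of 200 genes with at least 200 counts, changed 1.5-fold, were recovered; lower counts were not tried. Log differences used a pseudocount of 1 TPM. Transcript forms were assigned by their exons. Alternatives were DESeq2 1.42.0 size factors, ERCC and library totals, other filters and pseudocounts, the second quantification and leaving out a library. All members, the 4 highest genes of each other vessel list and pair partners are named. Cd93, Ets1, Jag1, Mcam, Myh11, Mylk, Smtn, Lmod1, Vtn, Col1a1, Col3a1 and the macrophage markers were named after their values were seen. Members and lists were chosen with earlier results of these data known.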

Additional observations from a re-analysis of the deposited data

How the results depend on the processing

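No paired analysis was possible because the series has 1 group. The second quantification gave summed levels of 573 TPM for endothelial and 248.6 TPM for mural members and a ratio of 2.30, and moved the Sox17/Sox7 ratio to 1.12. Scaled to nuclear protein-coding genes alone, the sums were 860 and 439 TPM. Leaving out a library returns the values of the other, so it is no separate check. These were 361 to 445 TPM for endothelial members, 202.4 to 209.1 TPM for mural members and a ratio of 1.78 to 2.13. By single library, 31 to 32 members were at 1 TPM or more.

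The scaling by added ERCC RNAs, which took a larger share of replicate 2, put the median log2 difference of scaled counts at -0.28 over all genes (0.01 with TMM) and at -0.46 over the members (-0.17 with TMM). With it 26 members were called lower and 0 higher, beside 52.5% of all genes called and 50.8% lower. Abcc9 then turned to -0.19 (adjusted p = 1.2e-24) and Cspg4 to -0.13, and Vwf was called lower (adjusted p = 0.04), all by the exact binomial test. Plvap (0.50), Gja5 (0.12), Cspg4 (0.054) and Cnn1 (0.15) lost their calls, and 8 members gained one as lower: Rgs5 (1.3e-61), Rgcc, Mmrn2, Emcn, Sox7, Tagln, Sox18 and Gja4. Counts put Vwf at 0.17 (TMM), 0.18 (DESeq2 size factors) and 0.15 (library totals), and Gja5 at 0.64, 0.64, 0.62 and, by ERCC totals, 0.35, against the lower TPM. Cspg4 lost its call with library totals (adjusted p = 0.051), and Cnn1 in the second quantification (0.063) and with no filter on counts (0.062). Under DESeq2 size factors and with at least 50 counts all 33 members stayed on their side of the threshold, the 22 that passed and the others. Apart from the changes in effective length given for Vwf and Gja5, the cause was not tested. The protein-coding class of at least 300 counts was chosen after seeing the data. For Cnn1, Myocd and Gja5 the depth limits any direction.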

Other observations

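The 33 genes have 151 annotated transcripts, and 27 of the genes have more than 1. For 19 of these 27 the second quantification had the same leading transcript, and for 25 of 27 shares of counts did. In Cdh5, Rgs5 and Tie1 1 transcript led by far: it took 99.0% and 99.4% of the Cdh5 TPM, 99.0% and 99.1% for Rgs5, and 96.5% and 96.2% for Tie1. In the second quantification the Cdh5 transcript took 83.4% and 80.4%, while those of Rgs5 took 99.4% and 99.7% and those of Tie1 95.9% and 96.0%. Ecscr-204 took 95.2% and 94.1% of Ecscr in the first quantification and 0 in the second. A short Tagln model of 369 bases took 36.7% and 36.5% of Tagln and 0 in the second quantification. Erg was spread over 5 transcripts that each took a mean of 10% or more, led by Erg-207 with 39.1% and 45.9%, and by another transcript in the second quantification. Ptprb kept its split: the longer model took 70.0% and 72.6%, the shorter took 26.1% and 24.5%, and the second quantification gave 70.3% and 73.3% and then 26.8% and 26.1%.

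Levels of the members were higher in the second quantification by a median factor of 1.32, beside 1.35 over all genes. Vwf (0.932), Tagln (0.919) and Myocd (0.746) were lower there, and Esam (1.81) had the highest factor.

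The word ACAAT, searched with ATTGT, stood in 7 of 20 member promoters and 31.0% of all promoters. By side it stood in 4 of 16 endothelial promoters and 3 of 4 mural ones. A CArG box, the SRF motif, stood in 0 of 20 member promoters and 1.63% of all.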
